A study of Mus musculus with 15 samples.

Results

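A set of 10 genes that regulate cartilage or build its matrix apart from the collagens were followed in the mouse secondary palate: the transcription factors *Sox9*, *Sox5* and *Sox6* and the matrix or cartilage surface genes *Acan*, *Hapln1*, *Matn1*, *Matn3*, *Comp*, *Snorc* and *Cnmd*. They were chosen by name from the 54232 genes of the count table, and all 10 were among the 22151 genes that passed the filter on low counts. The samples were palates of wild-type (WT) mice taken 13.5, 14.5, 15.5 or 16.5 days into gestation (named E13.5, E14.5, E15.5 and E16.5) or at birth (P0), with 3 libraries for each of these 5 stages. Each library was bulk RNA sequencing of the pooled palates of 3 embryos, so no library reports on a single animal, and the p-values below measure the spread between pools. All groups shared the WT genotype and none had a treatment. The secondary palate forms from a pair of shelves that grow, elevate, fuse and then ossify, and cartilage of the nasal septum and cranial base lies close to it.

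SOX9 is the factor that cartilage cells need to form, and SOX5 and SOX6 bind DNA beside it and help it to switch on matrix genes. Cartilage matrix is a mesh of collagen II, IX and XI fibrils filled with aggrecan (*Acan*), a large proteoglycan that holds water and is fixed to hyaluronan by the link protein HAPLN1. Matrilins (*Matn1*, *Matn3*) and COMP, a member of the thrombospondin family, bridge the fibrils and the proteoglycans, SNORC is a small membrane proteoglycan of cartilage cells, and chondromodulin (*Cnmd*) is a membrane protein whose released part keeps blood vessels out of cartilage.

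The stretches before the starts of some of the matrix and surface genes are shown as a description. Whether they bear on the levels of these genes was not tested. RefSeq promoter sequences (GRCm38.p6) were matched by symbol for 7 of the 10 genes, and the 4 shown are the matrix and surface genes with a single start whose 250 bases before it did not overlap an exon of the same gene in GENCODE M21. *Sox9*, *Comp* and *Snorc* were without an entry. The stretches, read 5′ to 3′ on the strand of the gene, are chr7:79052976-79053225 (plus strand) for *Acan*, chr4:130944135-130944384 (plus) for *Matn1*, chr12:8947679-8947928 (plus) for *Matn3* and chr14:79662184-79662433 (minus) for *Cnmd*. Capitals mark ACAAT or ACAAAG, core letters bound by SOX proteins, and GGGCGG, the GC box, on either strand; overlapping GC boxes run together.

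Acan: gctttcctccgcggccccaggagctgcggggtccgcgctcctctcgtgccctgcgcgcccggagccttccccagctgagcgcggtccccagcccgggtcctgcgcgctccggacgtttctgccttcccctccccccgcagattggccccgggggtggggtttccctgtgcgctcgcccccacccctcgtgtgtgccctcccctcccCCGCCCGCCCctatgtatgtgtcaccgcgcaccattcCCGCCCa
Matn1: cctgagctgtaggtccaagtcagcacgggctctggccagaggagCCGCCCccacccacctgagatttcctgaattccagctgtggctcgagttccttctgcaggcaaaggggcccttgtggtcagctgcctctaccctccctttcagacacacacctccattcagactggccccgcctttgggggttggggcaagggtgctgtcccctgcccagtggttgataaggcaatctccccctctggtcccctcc
Matn3: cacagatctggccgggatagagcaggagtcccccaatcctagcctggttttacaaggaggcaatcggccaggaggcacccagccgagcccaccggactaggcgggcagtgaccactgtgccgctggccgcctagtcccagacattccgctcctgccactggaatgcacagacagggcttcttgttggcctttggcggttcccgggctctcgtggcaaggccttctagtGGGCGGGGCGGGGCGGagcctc
Cnmd: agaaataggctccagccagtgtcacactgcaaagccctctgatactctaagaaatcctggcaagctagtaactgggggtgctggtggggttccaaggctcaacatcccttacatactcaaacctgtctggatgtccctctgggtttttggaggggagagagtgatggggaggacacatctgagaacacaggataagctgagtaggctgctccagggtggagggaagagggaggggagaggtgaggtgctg

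None of the 4 stretches held ACAAT or ACAAAG, while 38.8% of all 32851 RefSeq stretches of this length held at least 1 of them (27.7% ACAAT, 16.5% ACAAAG). The GC box was found 3 times before *Acan*, 3 times before *Matn3*, 1 time before *Matn1* and 0 times before *Cnmd*, and 32.7% of all stretches held it. The 4 differed in base composition, from 54.0% G and C for *Cnmd* to 74.4% for *Acan*, where the median of all stretches was 52.4%. Of all stretches, 95.4% had less G and C than *Acan*, 83.0% than *Matn3*, 76.7% than *Matn1* and 55.2% than *Cnmd*. The share of all stretches with ACAAT or ACAAAG, which are rich in A, is thus not a like background. The same holds for the share with the GC box, which is made of G and C only. Of the other members, *Hapln1* had 1 ACAAT and *Sox5* 1 ACAAT, and each of the 6 *Sox6* starts had a match to ACAAT or ACAAAG. The motifs were picked after the sequences were seen, so these counts are not a test. A match is a description of letters, and these 250 bases leave out distant enhancers.

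Libraries held 21.5 to 69.0 M counts (M, 1000000), and levels are given as counts per M (CPM) after the trimmed mean of M values (TMM) scaling. The 3 cartilage collagens used to check for cartilage, *Col2a1*, *Col9a1* and *Col11a2*, were present in all 15 libraries, with *Col2a1* between 237 and 2058 CPM. Markers of osteoblasts, tendon, Schwann cells, muscle, blood, epithelia, endothelium and brain also had counts in every library. Some of these counts lay below the floor of 3 counts taken for detection. Examples are the lowest values of the brain marker *Kcne2* at P0 (0.0277 CPM) and the osteoblast marker *Bglap* at E14.5 (0.0312 CPM). The library E14.5 replicate 1 stood apart: all 10 genes were at their lowest of the stage in it, as were 34.4% of all tested genes, and its summed brain and choroid plexus markers (*Ttr*, *Kcne2*, *Tubb3*, *Neurod1*) were 3189 CPM against 1371 and 1520 CPM in the other E14.5 libraries. The steps to and from E14.5 and the spread within that stage are given with and without it.

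From E13.5 to P0, *Sox9*, *Sox5*, *Hapln1* and *Matn1* fell, *Comp* and *Snorc* rose, and *Sox6*, *Acan*, *Matn3* and *Cnmd* did not pass the test (edgeR's quasi-likelihood test over all 15 libraries, Benjamini-Hochberg adjusted over all 22151 genes, threshold 0.05). The 6 genes called compare with 56.6% of all tested genes called in this contrast, 29.8% higher and 26.8% lower, so the share of members called was near that of all genes. The median log2 fold change of the 10 genes was -1.52, against 0.03 over all tested genes. Across the 5 stages the same test over all stage coefficients called 6 of the 10, against 59.1% of all genes.

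**Figure D1:**
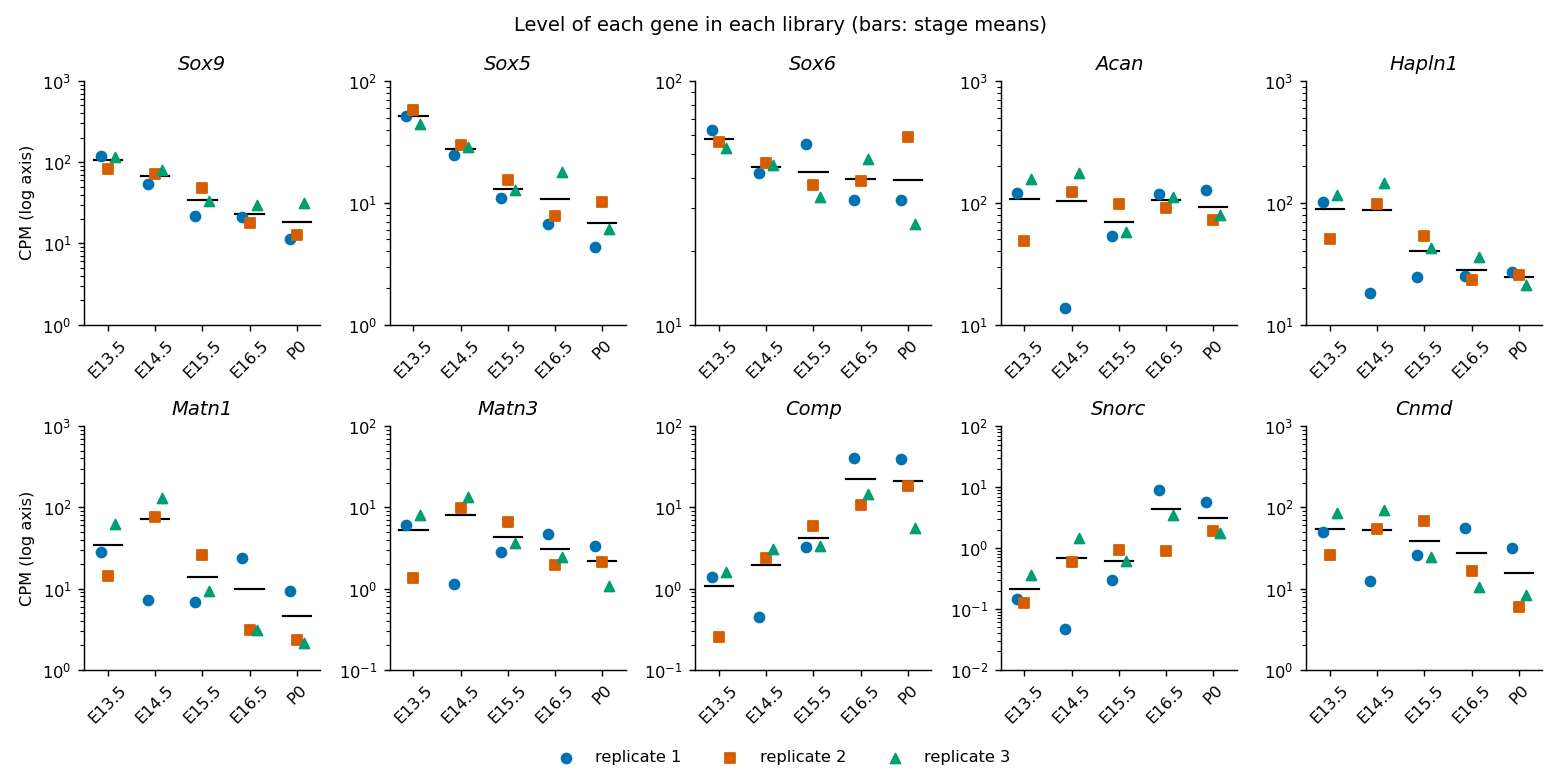
Level of each gene in CPM (log axis) in each of the 15 libraries at the 5 stages, with symbols for the replicate number and a bar at the mean of each stage. *Sox9* and *Sox5* step down from E13.5 to P0, the E16.5 and P0 means of *Comp* and *Snorc* lie above those of the 3 earlier stages, *Acan* has similar means at the first and last stage, and E14.5 replicate 1 lies lowest of its stage in all 10 panels.

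Of the transcription factors, *Sox9* was measured at 119, 81.5 and 115 CPM in the E13.5 libraries (replicates 1 to 3), 54.2, 71.6 and 79.2 CPM at E14.5, and 21.7, 47.9 and 33.3 CPM at E15.5. It stood at 21.4, 17.7 and 29.6 CPM at E16.5 and at 11.3, 12.5 and 31.2 CPM at P0. The mean was lower at each stage than at the one before, and no P0 library reached the lowest E13.5 library. The fall from E13.5 to P0 was 2.53 ± 0.40 on the log2 scale (SE), or 5.76-fold lower (edgeR, adjusted p = 0.000225), and between neighbouring stages no step of *Sox9* passed, the nearest being E15.5 against E14.5 at -0.99 ± 0.38 (edgeR, adjusted p = 0.0712). P0 replicate 3, at 31.2 CPM, was 2.77 times P0 replicate 1; without it the log2 fold change from E13.5 was -3.12. In bulk tissue fewer cells of a type and less RNA per cell cannot be told apart, here and for every gene below.

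*Sox5*, a SoxD factor that lacks an activation domain of its own, also declined early on. It was at 51.8, 57.5 and 44.2 CPM at E13.5, 24.6, 29.8 and 28.9 CPM at E14.5 and 10.9, 15.4 and 12.7 CPM at E15.5. The libraries of these 3 stages did not overlap, which was also so for *Sox9*. At E16.5 it was at 6.71, 7.77 and 17.8 CPM and at P0 at 4.33, 10.1 and 6.10 CPM. These late stages overlapped with each other, and E16.5 replicate 3 lay above all E15.5 libraries. From E13.5 to P0 *Sox5* fell by 2.90 ± 0.38 on the log2 scale, 7.48-fold lower (edgeR, adjusted p = 5.71e-05), the smallest adjusted p of the 10 genes. It was also the only one of the 10 called between neighbouring stages, at E15.5 against E14.5 (-1.09 ± 0.35, edgeR, adjusted p = 0.0387). That call was lost without any single one of the 6 libraries of the contrast (adjusted p 0.068 to 0.107), and also without E13.5 replicate 1 (0.0527) or P0 replicate 3 (0.0583), with log2 fold changes of -0.99 to -1.24. It was lost too with upper-quartile scaling (adjusted p = 0.0652), without the filter on low counts (0.0636) and with a filter at a mean of 1 CPM (0.0564).

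*Sox6*, the close relative of *Sox5*, was steadier. It was at 63.1, 56.3 and 53.3 CPM at E13.5, between 42.0 and 45.9 CPM at E14.5, between 33.5 and 55.4 CPM at E15.5 and between 32.6 and 48.0 CPM at E16.5. The P0 libraries spanned 32.5, 58.9 and 26.0 CPM, so that replicate 2 lay within the E13.5 range. The log2 fold change from E13.5 to P0 was -0.56 ± 0.27 (edgeR, adjusted p = 0.0941); without P0 replicate 2 it was -0.96 (adjusted p = 0.00411). The remaining SoxD and SoxE genes, *Sox13*, *Sox8* and *Sox10*, gave 0 of 3 called in this contrast, with *Sox13* at -0.20 ± 0.18 and *Sox10*, the SoxE factor of Schwann cells, at -0.20 ± 0.42 on the log2 scale.

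The aggregating proteoglycan and its link protein, which are partners in the matrix, differed. *Acan* was at 120, 48.9 and 157 CPM at E13.5, at 13.6, 122 and 175 CPM at E14.5, and at 53.8, 97.8 and 57.4 CPM at E15.5. Later libraries were closer together, with 118, 90.6 and 111 CPM at E16.5 and 128, 71.7 and 80.2 CPM at P0. The first and last stages overlapped, and the log2 fold change was -0.22 ± 0.65 (edgeR, adjusted p = 0.788). The SE was wider than the difference, so a change of modest size in either direction was not detectable; leaving out E13.5 replicate 3 turned the sign (0.13).

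*Hapln1* was at 101, 50.1 and 116 CPM at E13.5, at 18.3, 97.9 and 146 CPM at E14.5 and at 24.4, 53.3 and 42.9 CPM at E15.5. It stood at 25.0, 23.2 and 35.7 CPM at E16.5 and at 27.3, 25.8 and 21.2 CPM at P0. All P0 libraries were below all E13.5 libraries, and the 3 P0 pools lay within 1.29-fold of each other. The fall from E13.5 to P0 was 1.84 ± 0.57 on the log2 scale, 3.59-fold lower (edgeR, adjusted p = 0.0145). Over the fits that left out 1 library the adjusted p rose to at most 0.0496 (edgeR, without P0 replicate 3), just under the threshold.

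The matrilins were high at E14.5 in replicates 2 and 3 and low at birth. *Matn1* was at 28.3, 14.2 and 61.8 CPM at E13.5, at 7.34, 76.7 and 132 CPM at E14.5 and at 6.93, 26.0 and 9.27 CPM at E15.5. It was at 23.5, 3.10 and 3.13 CPM at E16.5 and at 9.32, 2.35 and 2.13 CPM at P0. In each of the last 3 stages 1 library was well above the other pair: replicate 2 at E15.5 and replicate 1 at E16.5 and P0. From E13.5 to P0 *Matn1* fell by 2.91 ± 1.11 on the log2 scale, 7.49-fold lower, with no overlap between the stages (edgeR, adjusted p = 0.0397). This call was lost without E13.5 replicate 1 (log2 fold change -3.04, adjusted p = 0.0585), E13.5 replicate 3 (-2.21, 0.123), E14.5 replicate 2 (-2.91, 0.0505), P0 replicate 2 (-2.57, 0.122) or P0 replicate 3 (-2.57, 0.112), and without P0 replicate 1 the value was -3.91.

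*Matn3*, the other matrilin, had 1.37 to 8.17 CPM at E13.5, 1.14 to 13.2 CPM at E14.5, 2.83 to 6.59 CPM at E15.5, 1.96 to 4.73 CPM at E16.5 and 1.09 to 3.30 CPM at P0. The stages overlapped, and the log2 fold change from E13.5 to P0 was -1.25 ± 0.80 (edgeR, adjusted p = 0.194).

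*Comp* moved the other way. It was at 1.38, 0.254 and 1.62 CPM at E13.5, 0.452, 2.41 and 3.03 CPM at E14.5 and 3.24, 5.83 and 3.36 CPM at E15.5, and then at 41.1, 10.7 and 14.6 CPM at E16.5 and 39.5, 18.1 and 5.57 CPM at P0. Every E16.5 library was above every E15.5 library, and every P0 library above every E13.5 library. The rise from E13.5 to P0 was 4.28 ± 0.94 on the log2 scale, 19.5-fold (edgeR, adjusted p = 0.00199), and 3.50 without P0 replicate 1. The step from E15.5 to E16.5 alone was 2.42 ± 0.86 (edgeR, adjusted p = 0.136), which did not pass, and was 1.60 without E16.5 replicate 1.

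*Snorc* followed a similar course from a lower level. Its libraries had 9 to 24 counts at E13.5 (0.143, 0.127 and 0.357 CPM), 3 to 103 counts at E14.5 (0.0467, 0.590 and 1.45 CPM) and 18 to 62 counts at E15.5 (0.303, 0.924 and 0.622 CPM). The 3 counts in E14.5 replicate 1 equal the floor taken for detection. At E16.5 it was at 8.85, 0.885 and 3.50 CPM, where replicate 2 lay within the E15.5 range, and at P0 at 5.69, 1.89 and 1.74 CPM, all above E13.5. The rise from E13.5 to P0 was 3.89 ± 1.07 on the log2 scale, 14.8-fold (edgeR, adjusted p = 0.00789), with 3.15 without P0 replicate 1 and 4.50 without E13.5 replicate 3. E16.5 against E15.5 gave 2.83 ± 0.99 (edgeR, adjusted p = 0.134), and 1.82 without E16.5 replicate 1.

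*Cnmd* was at 49.2, 25.7 and 86.5 CPM at E13.5, 12.4, 54.9 and 92.8 CPM at E14.5 and 25.6, 67.2 and 24.4 CPM at E15.5. It was at 55.4, 16.4 and 10.4 CPM at E16.5 and at 32.0, 5.85 and 8.36 CPM at P0. P0 replicate 1 lay within the E13.5 range while the other P0 libraries lay below it. The log2 fold change from E13.5 to P0 was -1.80 ± 0.87 (edgeR, adjusted p = 0.0935); without P0 replicate 1 it was -2.88 (adjusted p = 0.0285). Its relative in tendon, tenomodulin (*Tnmd*), was at 0.846 to 7.23 CPM at E13.5 and E14.5 and between 11.96 and 56.7 CPM at E15.5, and it was higher at P0 than at E13.5 by 2.73 ± 0.88 (edgeR, adjusted p = 0.0185).

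**Figure D2:**
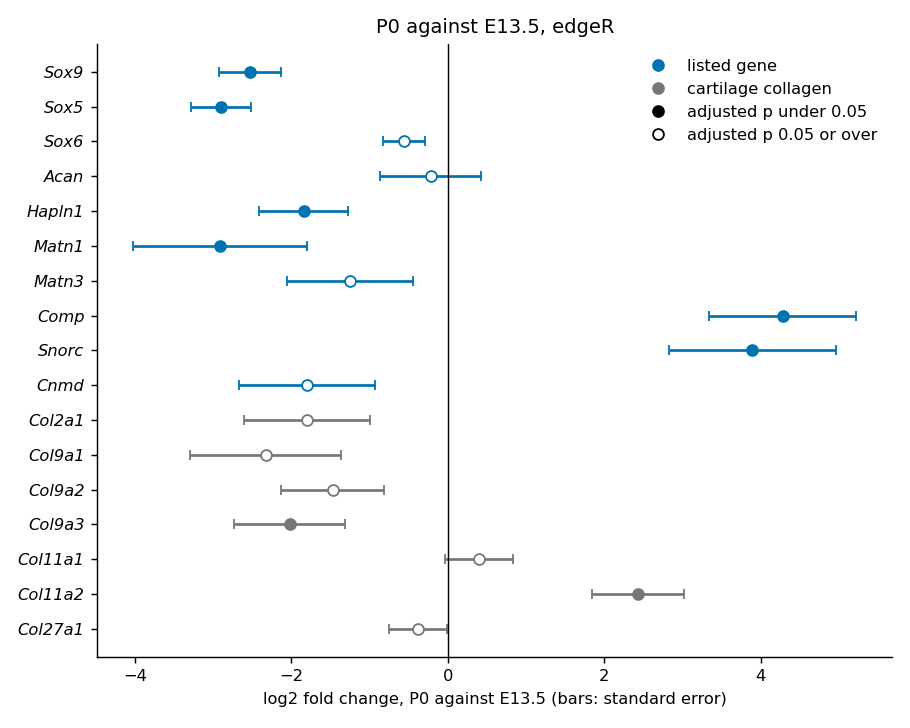
Log2 fold change from E13.5 to P0 with its standard error for the 10 genes (blue) and for the 7 cartilage collagens (grey), from the fit over all 15 libraries; filled points have an adjusted p under 0.05. *Sox9*, *Sox5*, *Hapln1* and *Matn1* lie to the left of 0 and *Comp* (4.28) and *Snorc* (3.89) to the right, and of the collagens *Col11a2* (2.43) and *Col9a3* (-2.02) are filled.

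Between neighbouring stages fewer members were called. E14.5 against E13.5 called 0 of the 10 (0.00903% of all genes were called; 1 member, *Sox5*, had an unadjusted p under 0.05), with *Sox5* at -0.88 ± 0.35 (edgeR, adjusted p = 0.259). DESeq2 also called 0. E15.5 against E14.5 called 1, *Sox5*, against 26.1% of all genes, with 3 at an unadjusted p under 0.05, and DESeq2 called 3, *Sox9*, *Sox5* and *Matn1*. E16.5 against E15.5 called 0 against 1.41% of all genes, with 2 at an unadjusted p under 0.05, *Comp* and *Snorc*, and DESeq2 called these 2. P0 against E16.5 called 0 against 0.352% of all genes, with 0 at an unadjusted p under 0.05 and 0 by DESeq2. The libraries of neighbouring stages did not overlap for 3 of the 10 genes at the first step (*Sox9*, *Sox5* and *Sox6*, against 29.2% of all genes), 3 at the second (*Sox9*, *Sox5* and *Comp*, against 51.3%), 1 at the third (*Comp*, against 31.2%) and 0 at the last (against 11.6%).

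E14.5 replicate 1 weighed on the first pair of steps for the matrix genes. It was the lowest of its stage for all 10 genes, so leaving it out by itself raises their E14.5 means. Without it, *Acan*, *Hapln1* and *Cnmd* each gave a log2 difference of 0.46 from E13.5 to E14.5, against -0.07, -0.03 and -0.01 with it, and *Matn1* 1.59 against 1.05. *Matn3* gave 1.15 against 0.64, *Comp* 1.33 against 0.86 and *Snorc* 2.28 against 1.73, and of the factors *Sox9* gave -0.48 against -0.62, *Sox5* -0.80 against -0.88 and *Sox6* -0.34 against -0.38; none of the 10 passed. From E14.5 to E15.5, *Hapln1* then passed at -1.61 ± 0.37 (edgeR, adjusted p = 0.0211), against -1.12 ± 0.55 with all libraries (adjusted p = 0.151). *Hapln1* passed at this step in only 1 of the 15 fits that left out a library. Over these fits its log2 fold change ranged from -1.61 to -0.54. Without E14.5 replicate 3 its adjusted p was 0.498 (edgeR). Without E14.5 replicate 1, *Sox5* gave -1.18 (edgeR, adjusted p = 0.0809) and *Matn1* -2.90 (0.0833). At this step *Acan* gave -1.10 without the library against -0.57 with it, *Matn3* -1.42 against -0.90, *Cnmd* -0.93 against -0.45, *Snorc* -0.73 against -0.17 and *Comp* 0.60 against 1.07. *Sox9* gave -1.15 against -0.99 and *Sox6* -0.12 against -0.07, and none of these 7 passed.

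Per kilobase of exon, the scale on which genes can be compared, the order of the levels changed between the first stage and birth. At E13.5 *Cnmd* (29.2 ± 16.6 CPM per kb, SD, n = 3), *Sox9* (25.4 ± 4.99), *Matn1* (17.4 ± 12.2), *Hapln1* (15.1 ± 5.83) and *Acan* (14.5 ± 7.35) led, and neighbours among these 5 differed by less than their spread. *Sox6* (3.88 ± 0.337) and *Sox5* (3.56 ± 0.464) came next and did not differ beyond their spread, followed by *Matn3* (1.73 ± 1.16), *Comp* (0.365 ± 0.246) and *Snorc* (0.289 ± 0.177), in which neighbours overlapped. At P0 *Acan* led (12.5 ± 4.04), then *Cnmd* (8.36 ± 7.84), *Comp* (7.10 ± 5.78), *Sox9* (4.43 ± 2.70), *Snorc* (4.30 ± 3.10), *Hapln1* (4.19 ± 0.542), *Sox6* (2.64 ± 1.17), *Matn1* (2.30 ± 2.04), *Matn3* (0.721 ± 0.367) and *Sox5* (0.476 ± 0.205). The ranges of mean ± SD overlapped for every pair of neighbours in this order. By their means *Comp* and *Snorc* moved from the bottom of the order to its middle, though their places among neighbours at P0 were not resolved. Exon lengths are the authors' union of all isoforms, which is 14376 bases for *Sox5* and 14832 for *Sox6* and lowers their per-kilobase levels.

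The matrix genes varied together between pools of the same stage. All 7 were lowest in replicate 2 and highest in replicate 3 at E13.5, lowest in replicate 1 and highest in replicate 3 at E14.5, highest in replicate 2 at E15.5 and highest in replicate 1 at P0. At E16.5, 6 of the 7 were highest in replicate 1, the exception being *Hapln1*. Of all tested genes, 38.1% were lowest in E13.5 replicate 2, 43.9% highest in E13.5 replicate 3, 34.4% lowest in E14.5 replicate 1, 36.8% highest in E14.5 replicate 3, 23.4% highest in E15.5 replicate 2, 39.7% highest in E16.5 replicate 1 and 30.6% highest in P0 replicate 1. The factors followed this order in part: all 3 were lowest in E14.5 replicate 1, *Sox9* was also lowest in E13.5 replicate 2 and highest in E14.5 replicate 3, and *Sox9* and *Sox5* were highest in E15.5 replicate 2. They departed from it elsewhere, *Sox5* being highest in replicate 2 at E13.5 and *Sox9* highest in replicate 3 at P0, a library in which 5 of the 7 matrix genes, and 33.5% of all genes, were lowest.

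**Figure D3:**
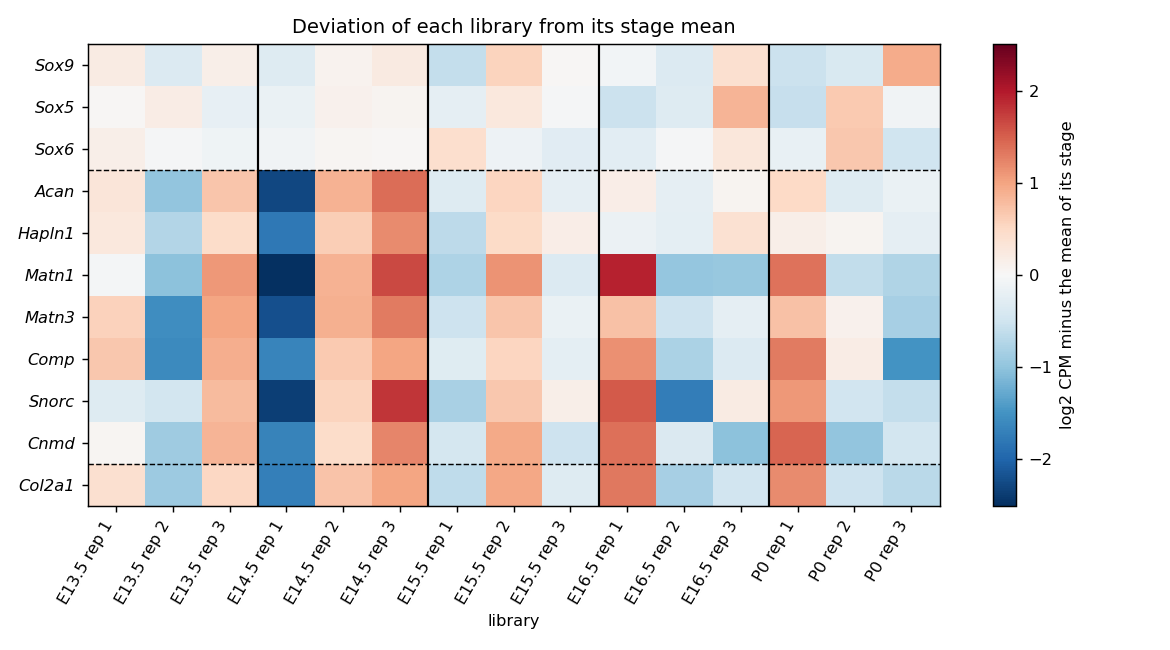
Log2 CPM of each library (columns, 3 replicates in each of 5 stages) minus the mean of its stage, for the 10 genes and *Col2a1* (rows); red is above and blue below the stage mean. The 7 matrix and surface genes mostly share their colours with *Col2a1* (exceptions include *Hapln1* in E16.5 replicates 1 and 3, *Comp* in P0 replicate 2 and *Snorc* in E13.5 replicate 1), with the deepest blue in E14.5 replicate 1, while the 3 *Sox* rows are paler.

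These shared deviations ran with those of *Col2a1*, the main fibril collagen of cartilage, which was not a member. Over the 15 libraries, after subtracting each stage's mean, Pearson's r with *Col2a1* was 0.98 for *Matn1*, 0.95 for *Cnmd*, 0.92 for *Comp*, 0.91 for *Matn3*, 0.90 for *Snorc*, 0.84 for *Acan* and 0.74 for *Hapln1*. It was 0.20 for *Sox9*, -0.21 for *Sox6* and -0.24 for *Sox5*. Without the 2 libraries farthest from the median of *Col2a1* the 7 matrix values were 0.88 to 0.97, *Sox9* 0.46, *Sox5* 0.11 and *Sox6* -0.05. Among the 7 genes, the 21 pairs had r of 0.64 to 0.97 with a median of 0.84. Of 16518 other genes with a mean of at least 1 CPM, 1.19% had an r of 0.80 or more with *Col2a1*. These correlations are descriptions over libraries that share depth, dissection and composition, and each stage gives only 3 points.

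The spread this left within a stage was wide. The highest E14.5 library was 12.9 times the lowest for *Acan*, 17.98 times for *Matn1* and 31.0 times for *Snorc*, against 1.46 times for *Sox9*, 1.21 times for *Sox5* and 1.09 times for *Sox6*. These spreads rested on E14.5 replicate 1: between the other E14.5 libraries the ratio was 1.44 for *Acan*, 1.72 for *Matn1*, 2.45 for *Snorc* and 1.26 to 1.69 for the other 4 matrix genes, and 1.02 to 1.11 for the 3 factors. At E16.5 the same ratio was 7.59 for *Matn1* and 1.31 for *Acan*, so the matrix genes did not all spread alike. The neuronal tubulin *Tubb3* was at 625, 1215 and 348 CPM at E13.5 and at 1886, 1342 and 809 CPM at E14.5, highest in the libraries where the matrix genes were lowest and lowest where they were highest. It was at 671, 375 and 314 CPM at E15.5 and 360, 647 and 421 CPM at E16.5. At P0 it was at 617, 379 and 285 CPM, highest in the library where the matrix genes were highest. The summed brain and choroid plexus markers include *Tubb3*, and all 4 had counts in every library, though *Kcne2* fell below the floor at P0 (lowest 0.0277 CPM). This sum was 646, 1245 and 457 CPM at E13.5. At E14.5 it was 3189, 1371 and 1520 CPM, lowest in replicate 2 and not in replicate 3, where *Tubb3* was lowest. It ranged from 331 to 681 CPM at E15.5, 364 to 654 CPM at E16.5 and 401 to 745 CPM at P0. *Ttr*, *Kcne2* and *Neurod1* were not followed library by library. The part of neighbouring tissue in these differences was not tested.

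Counts were also expressed per 100 counts of *Acan* in the same library, which sets aside only the differences that a gene shares with *Acan*. Differences between pools remained: at E16.5 replicate 1 was still highest for *Matn1* (19.9 against 3.42 and 2.83), *Matn3*, *Comp*, *Snorc* and *Cnmd* (46.8 against 18.1 and 9.35). It was lowest there for *Hapln1*. On this scale *Comp* was at 1.15, 0.519 and 1.03 counts per 100 *Acan* at E13.5, 3.33, 1.98 and 1.73 at E14.5, and 6.02, 5.96 and 5.85 at E15.5. At E16.5 it was at 34.8, 11.8 and 13.2 and at P0 at 30.9, 25.3 and 6.95. Each stage up to E16.5 lay wholly above the one before, and the 3 E15.5 values lay close together although their *Acan* levels differed by 1.82-fold. *Matn3* was likewise close at E14.5, at 8.38, 8.17 and 7.56 counts per 100 *Acan*, where its CPM differed by 11.6-fold.

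Relative to *Acan*, *Hapln1* went from 73.7 to 103 counts per 100 at E13.5 and 80.4 to 135 at E14.5 to 45.4 to 74.8 at E15.5, 21.1 to 32.3 at E16.5 and 21.4 to 36.0 at P0. *Matn1* went from 23.6 to 39.4 at E13.5, up to 54.1 to 75.3 at E14.5, and then to 12.9 to 26.6 at E15.5, 2.83 to 19.9 at E16.5, where replicate 1 lay within the E15.5 range, and 2.66 to 7.30 at P0. Its E14.5 values lay above all those of E13.5 and E15.5, which overlapped each other. *Cnmd* was at 41.1 to 55.1 at E13.5, 45.1 to 91.6 at E14.5, 42.5 to 68.7 at E15.5, 9.35 to 46.8 at E16.5 and 8.16 to 25.1 at P0. *Snorc* was at 0.120 to 0.259 at E13.5, 0.344 to 0.826 at E14.5, 0.564 to 1.08 at E15.5, 0.977 to 7.48 at E16.5 and 2.17 to 4.45 at P0. In all, 7 of the 9 ratios did not overlap between E13.5 and P0, *Sox6* and *Matn3* being the others, against 25.4% of 22150 tested genes in ratio to *Acan*. The matrix genes deviated together with *Acan* between pools, which narrows their ratios, so this share of all genes is not a like background for them. In CPM, 6 of the 10 genes did not overlap between these stages, against 59.1% of all tested genes.

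**Figure D4:**
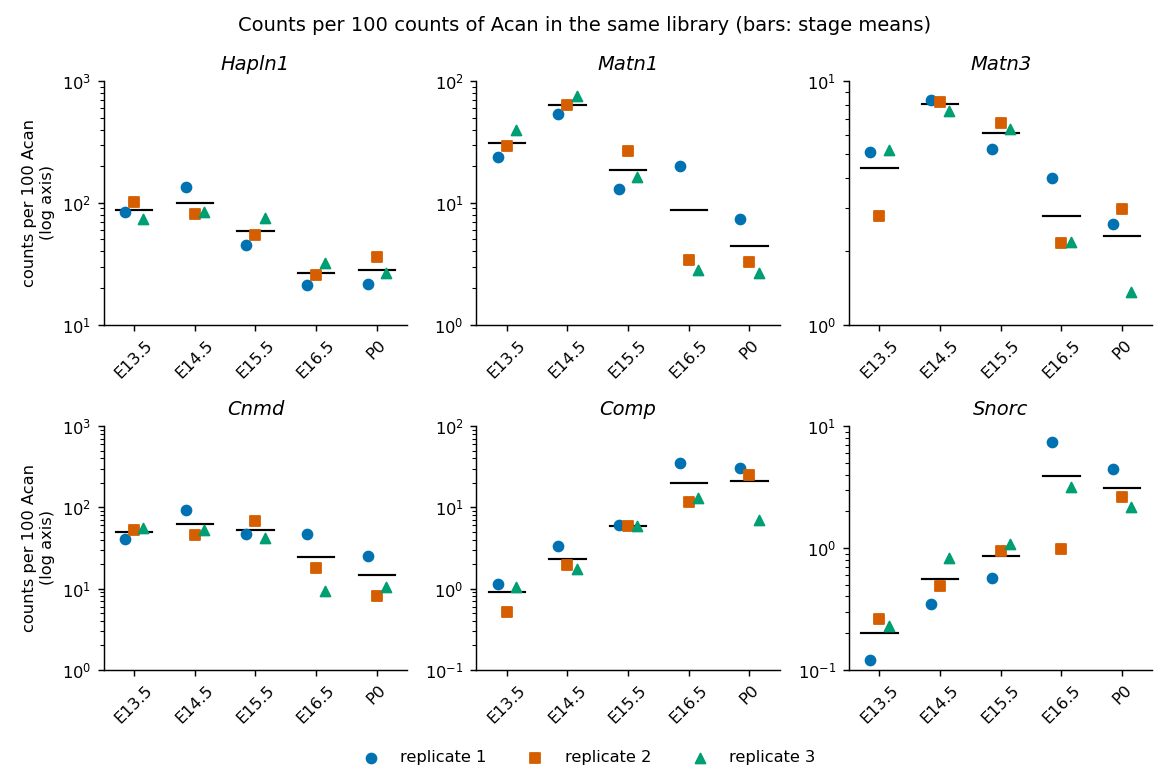
Counts of 6 matrix genes per 100 counts of *Acan* in the same library (log axis), by stage, with symbols for the replicate number and a bar at each stage's mean. *Comp* and *Snorc* are higher at P0 than at E13.5, *Hapln1*, *Matn1* and *Cnmd* are lower at P0 than at E13.5, and *Matn3* overlaps between these stages.

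The other cartilage genes split in the same contrast, P0 against E13.5, in which 29.8% of all genes were higher and 26.8% lower. These shares are the background for each list below. Of 7 cartilage collagens 1 was higher, *Col11a2* (2.43 ± 0.59 on the log2 scale, edgeR, adjusted p = 0.00392), and 1 lower, *Col9a3* (-2.02 ± 0.71, adjusted p = 0.0287); the abundant *Col2a1* gave -1.80 ± 0.80 (adjusted p = 0.071) and *Col9a1* -2.33 ± 0.96 (adjusted p = 0.053). Of the other uncalled collagens, *Col9a2* gave -1.47 ± 0.66 (edgeR, adjusted p = 0.0749), *Col27a1* -0.38 ± 0.37 (0.385) and *Col11a1* 0.40 ± 0.43 (0.439). Of 12 other cartilage matrix and secreted genes 5 were higher and 1 lower. Chondroadherin (*Chad*), a leucine-rich matrix protein that binds cells to collagen, rose from 3.44 to 7.57 CPM at E13.5 to 38.6 to 72.3 CPM at P0 (edgeR, log2 fold change 3.15 ± 0.63, adjusted p = 0.00116), and fibromodulin (*Fmod*) rose by 3.07 ± 0.36 (adjusted p = 2.73e-05), while *Susd5* fell by 2.01 ± 0.59 (adjusted p = 0.0119). The median log2 fold changes were -1.47 for the collagens and 0.12 for the other matrix genes.

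Of 14 other chondrocyte regulators 2 were higher and 3 lower, against 56.6% of all genes called in either direction. The higher ones were *Mef2c*, a factor of chondrocyte hypertrophy (1.32 ± 0.33, edgeR, adjusted p = 0.0047), and *Pthlh*, the parathyroid hormone-related peptide (1.41 ± 0.40, adjusted p = 0.0101). The lower ones were *Trps1* (-1.73 ± 0.30, adjusted p = 0.000409), *Wwp2*, a ubiquitin ligase that binds SOX9 (-1.27 ± 0.28, adjusted p = 0.00233), and *Foxc1* (-1.16 ± 0.32, adjusted p = 0.00766).

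Of 8 genes used for hypertrophic cartilage, the state in which cartilage is replaced by bone, 7 were higher, against 29.8% of all genes, and *Runx2* was not called (0.23 ± 0.39). *Col10a1*, the collagen of hypertrophic cartilage, was at 0.201 to 0.431 CPM at E13.5 and 16.2 to 71.9 CPM at P0 (edgeR, log2 fold change 7.46 ± 0.78, adjusted p = 1.45e-05). *Ihh*, the hedgehog signal of prehypertrophic cartilage, gave 1.96 ± 0.42 (adjusted p = 0.00173) and *Panx3*, a channel protein, 2.71 ± 0.50 (0.000616). Osteoblasts also make several of these, such as *Ibsp*, *Spp1*, *Alpl* and *Mmp13*. The 6 osteoblast markers (*Col1a1*, *Ibsp*, *Bglap*, *Sp7*, *Dmp1* and *Phex*) were all higher as well, though *Ibsp* is in both lists. Their summed level was 1225 to 1860 CPM at E13.5 and 16080 to 30849 CPM at P0. Most of this sum was *Col1a1*, at 1201 to 1794 CPM at E13.5 and 14998 to 28846 CPM at P0. The part of bone in the hypertrophic counts was not tested.

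Genes of proteoglycan synthesis and sulphation gave 0 higher and 3 lower of 10 (26.8% of all genes were lower), *Chst3*, *Xylt1* and *Chsy1*, with log2 fold changes of -0.78 to -0.86. Of 6 proteases that can cut aggrecan, *Adamts5* and *Adamts8* were higher and *Adamts4* lower (-0.71 ± 0.19, edgeR, adjusted p = 0.00748). Of 4 thrombospondins, relatives of *Comp*, 3 were higher, *Thbs4* (3.09 ± 0.61, edgeR, adjusted p = 0.000979), *Thbs2* (2.13 ± 0.39, adjusted p = 0.000568) and *Thbs3* (0.81 ± 0.19, adjusted p = 0.00315). Of the 29 genes called in these lists, 24 stayed called whichever 1 of the 6 libraries of the contrast was omitted, and *Adamts5*, *Col9a3*, *Prg4*, *Ucma* and *Vit* were not. *Adamts5* (adjusted p = 0.0501) and *Ucma* (0.0521) were lost without P0 replicate 1. *Col9a3* was lost without E13.5 replicate 1 or 3 or P0 replicate 2 or 3 (0.0507 to 0.101), *Prg4* without any E13.5 library or P0 replicate 2 (0.0584 to 0.125), and *Vit* without E13.5 replicate 1 or 3 or P0 replicate 1 or 3 (0.0564 to 0.128).

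At E16.5 against E15.5, where *Comp* and *Snorc* had higher means without passing, *Chad* and *Col10a1* were called among the listed genes (both 2.83 on the log2 scale, edgeR, adjusted p = 0.0486 and 0.0483). *Chad* was at 4.43 to 9.03 CPM at E15.5 and 35.4 to 57.8 CPM at E16.5, with no overlap. The *Chad* call was lost without any single library of the 6 (adjusted p 0.0537 to 0.185), and that of *Col10a1* without any E15.5 library or E16.5 replicate 1 (0.0989 to 0.2). At this step the summed skeletal muscle markers also went from 704 to 1908 CPM to 6525 to 22136 CPM, highest in E16.5 replicate 1, the library where *Comp*, *Snorc* and *Chad* were highest; the part of composition in these steps was not tested.

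Genes other than the 10 members were ranked by how closely they followed *Sox9* over the 15 libraries. Of 16509 genes with a mean of at least 1 CPM, the 5 with the highest Pearson's r of log2 CPM were *Hmga2* (0.976), *Sufu* (0.966), *Scube1* (0.966), *Hnrnpm* (0.965) and *Hunk* (0.963). For the mean pattern of the 7 matrix genes they were *Itih5l-ps* (0.905), *Ncmap* (0.891), *Meltf* (0.864), *Col2a1* (0.815) and *Bmp5* (0.807). That pattern averages genes that rose over the stages (*Comp*, *Snorc*) with genes that fell (*Hapln1*, *Matn1*), so their stage trends partly offset each other in it. *Itih5l-ps* had a mean of 1.23 CPM, near the limit of 1 CPM. These values describe 15 libraries that share stage and depth.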

How the data were processed

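Bulk RNA sequencing of pooled WT palates was analysed from the deposited table of counts per gene. Per the file headers, the authors counted read pairs on the reverse strand with featureCounts 2.0.1 against an annotation named GENCODE M18. The submitters' processing notes name cutadapt 3.4, HISAT2 2.2.1, SAMtools 1.12 and the build mm10. Gene symbols and positions were checked against GENCODE M21, in which 97.7% of table genes had the same position, including all 10 members. Stages came from the labels. The members and gene lists were chosen with earlier results of these data known. All members were named at every stage, and listed genes were to be named with values only where they passed or were among the 3 most abundant of a list per kilobase; *Col9a1*, *Col11a1*, *Col27a1* and *Runx2* fall outside this and were named after their values were seen.

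Genes were filtered with filterByExpr (minimum count 10), scaled by TMM and tested by quasi-likelihood (edgeR 4.0.16 in R 4.3.3, a coefficient for each stage, Benjamini-Hochberg adjustment). Log2 CPM used a prior count of 2. Depth was 21.5 to 69.0 M counts; a floor of 3 counts was 0.0435 to 0.140 CPM and covers counting error only. Libraries of a stage differed by more than counting noise (chi-square per degree of freedom 31.0 to 220). The fit was tested on simulated data. The alternatives were DESeq2 1.42.0, other scalings and filters, fits to 6 libraries, a replicate block and leaving out each library. The promoter motifs were picked after the sequences were seen.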

Additional observations from a re-analysis of the deposited data

How the results depend on the processing

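The count of members called held within 1.5 times of the main one in every alternative for E14.5 against E13.5, P0 against E16.5, P0 against E13.5 (5 to 7 members) and the 5 stages together (4 to 6 members). For E15.5 against E14.5 the count was 3 with DESeq2 (*Sox9*, *Sox5* and *Matn1*) and 0 with upper-quartile scaling, without the filter on low counts or with a mean of at least 1 CPM, and it ranged from 0 to 1 when single libraries were left out. For E16.5 against E15.5 DESeq2 called 2, *Comp* and *Snorc*. The replicate block gave 5 members for P0 against E13.5 and for the 5 stages, without *Matn1* (edgeR, adjusted p = 0.06). Some same-numbered libraries deviated together, but not in a regular way (r -0.3 to 0.55, mean 0.06, 9 of 30 pairs over 0.1). The numbers were therefore not taken as pairs. The log2 fold change of *Acan* from E13.5 to P0 ranged from -0.58 to 0.13 over the fits that left out 1 library, and *Cnmd* passed with DESeq2 (adjusted p = 0.0443). The 5 genes most like *Sox9*, and the 5 most like the matrix pattern, were the same with a prior count of 0.5. Over all genes, the count called moved by over 1.5 times in the 3 steps with few calls: from 2 to 1000 with DESeq2 and 0 in a fit to only 6 libraries for E14.5 against E13.5, from 312 to 2094 and 0 for E16.5 against E15.5, and from 78 to 663 and 0 for P0 against E16.5. Single libraries moved E15.5 against E14.5 from 5773 to as few as 2320 (without E14.5 replicate 1). Upper-quartile scaling moved the median log2 difference of all genes at E15.5 against E14.5 from 0.03 to 0.16. The lowest count of a member was that of *Snorc*, 3 counts in E14.5 replicate 1, equal to the floor.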
